A study of Mus musculus with 6 samples.

Results

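The transforming growth factor β (TGF-β) ligands, their receptors and a few of the genes the pathway induces were compared between mouse hearts with a cardiotonic steroid (CTS)-resistant and a CTS-sensitive Na/K-ATPase α1. The group was chosen by gene symbol as 9 of the 54532 genes in the count table: the ligands Tgfb1, Tgfb2 and Tgfb3, the receptors Tgfbr1, Tgfbr2 and Tgfbr3, the inhibitor Smad7, and the matrix genes Postn and Fn1. All 9 were among the 14866 genes with enough counts to be tested. RNA-seq read counts per gene were analysed in whole hearts of 6 male C57BL/6 mice at 3 months of age, with 3 hearts from age-matched animals per genotype. Resistant hearts were α1r/rα2s/s and came from mice 368, 369 and 370, and sensitive hearts were α1s/sα2s/s and came from mice 379, 380 and 381. Both genotypes carried the CTS-sensitive α2 isoform (α2s/s), and the paper calls the resistant α1r/rα2s/s heart wild-type. The sensitive α1 was made by amino acid substitutions knocked into the mouse gene, which every cell of the animal carried, and the hearts were neither sorted by cell type nor split by chamber.

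TGF-β is secreted in a latent form that is held in the extracellular matrix and must be released before it can bind its receptors. The released ligand brings together a type II and a type I receptor kinase, which phosphorylate Smad proteins that move to the nucleus and switch on matrix genes and their own inhibitors. In the heart the pathway is best known for turning fibroblasts into matrix-secreting myofibroblasts during fibrosis. The comparison asks whether a sensitive α1 was accompanied by other levels of these genes in hearts that received no fibrotic stimulus.

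Levels in single hearts are given as counts per 1000000 counts of the scaled library (CPM). Of the 9 genes, Fn1 was the only one that passed the test between genotypes (edgeR quasi-likelihood test, adjusted p = 0.0222), and it was 28.0% lower in sensitive hearts. Across all genes tested 1.44% passed in either direction and 0.659% passed as lower in sensitive hearts. Tgfb1 did not pass (adjusted p = 0.16 in edgeR), although its 3 sensitive hearts all lay below its 3 resistant hearts. The remaining 7 genes had adjusted p-values of 0.397 or above. By sign alone 6 of the 9 log2 fold changes (sensitive over resistant, so that a negative value is lower in sensitive hearts) were negative, and their median was −0.06, beside 51.6% negative and a median of −0.01 over all genes tested.

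**Figure D1:**
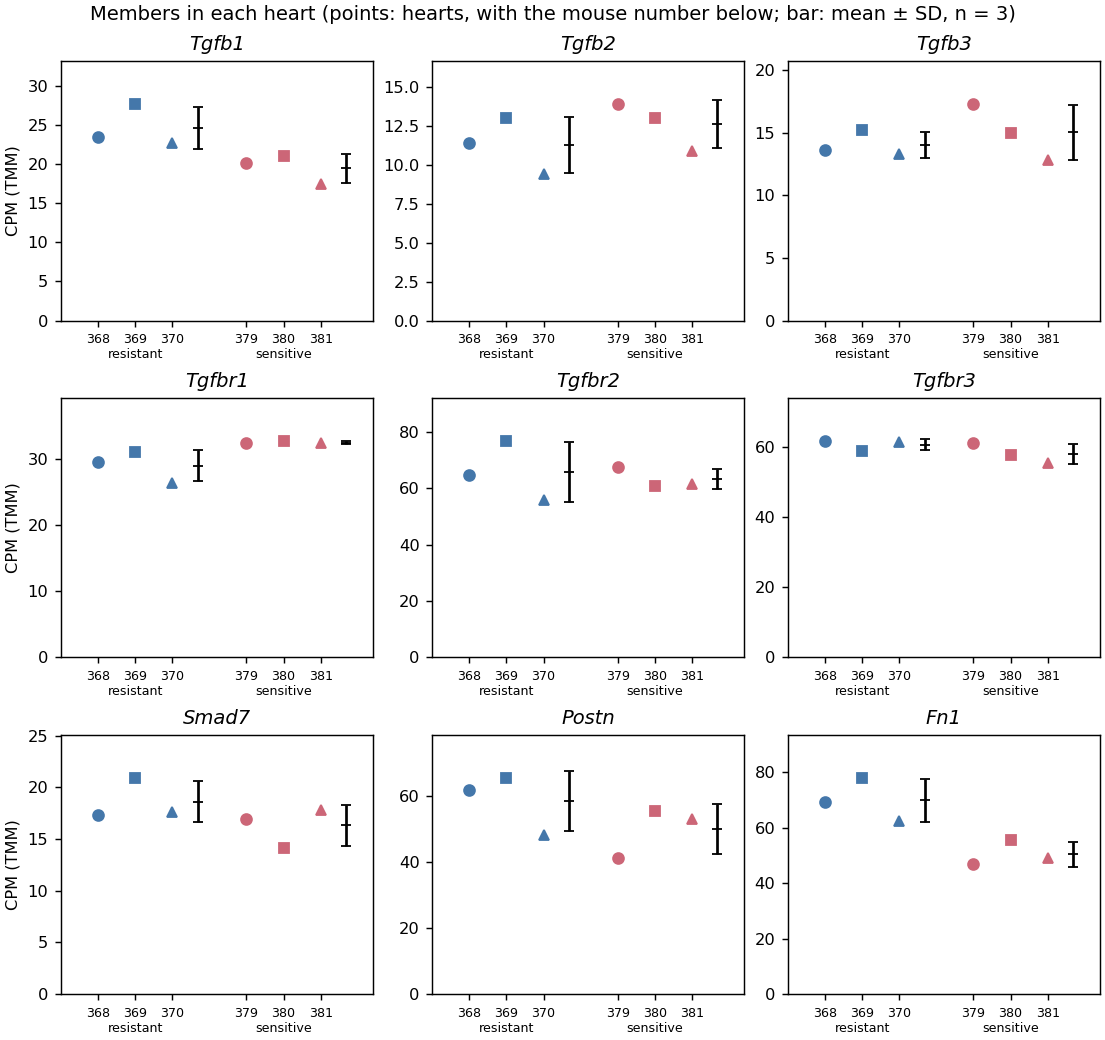
CPM, the normalised read count scaled to library size, of each of the 9 genes in each of the 6 hearts, by mouse number, with the mean ± SD of each genotype (n = 3) as a bar beside its points; every vertical axis starts at 0. The points of the genotypes do not overlap for Tgfb1, Tgfbr1 and Fn1, and overlap for the other 6 genes.

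Start-site sequences are shown for some genes of the group that a reference table of promoters holds, because the ligands Tgfb1 and Tgfb2 and the target Postn start from unlike windows. From the RefSeq promoter table for GRCm38.p6, 7 windows from 5 of the 9 genes were used: Tgfb1, Tgfb2, Tgfbr1, Tgfbr2 and Postn. These numbers count the windows used and do not show which of the 9 genes the table lacks. Postn and Tgfbr1 had 2 windows each, and the Postn window printed is the one nearest the annotated start of the gene. Each window holds 250 bases before and 50 bases after a start site and is written along the gene's own strand. Capitals mark CAGAC, searched on both strands (GTCTG on the other), a pentamer that contains the short core bound by Smad3 and Smad4, and TATAAA, searched on the gene's strand from 40 to 20 bases before the start. Neither motif can overlap the other. The Tgfb1 window is chr7:25686752-25687051 (+), that of Tgfb2 is chr1:186705940-186706239 (−), and that of Postn is chr3:54360857-54361156 (+).
Tgfb1: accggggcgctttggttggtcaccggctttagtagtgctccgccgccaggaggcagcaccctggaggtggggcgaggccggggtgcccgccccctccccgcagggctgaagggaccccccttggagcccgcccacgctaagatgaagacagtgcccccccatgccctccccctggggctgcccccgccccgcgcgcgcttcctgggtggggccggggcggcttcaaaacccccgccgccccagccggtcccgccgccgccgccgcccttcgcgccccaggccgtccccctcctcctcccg
Tgfb2: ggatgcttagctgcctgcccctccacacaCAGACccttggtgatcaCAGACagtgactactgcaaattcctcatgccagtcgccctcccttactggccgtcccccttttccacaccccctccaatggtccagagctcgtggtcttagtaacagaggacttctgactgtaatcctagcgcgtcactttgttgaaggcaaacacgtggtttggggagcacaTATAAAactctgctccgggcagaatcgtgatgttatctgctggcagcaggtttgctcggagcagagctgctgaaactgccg
Postn: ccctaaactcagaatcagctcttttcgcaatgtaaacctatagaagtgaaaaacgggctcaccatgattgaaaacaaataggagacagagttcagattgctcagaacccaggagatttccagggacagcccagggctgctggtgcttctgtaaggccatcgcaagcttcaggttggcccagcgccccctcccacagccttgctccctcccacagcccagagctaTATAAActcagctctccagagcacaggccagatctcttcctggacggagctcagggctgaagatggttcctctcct

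The Tgfb1 window held neither motif and was 77.0% G or C, which 2.4% of 32851 promoter windows of this length reach, beside a median of 52.7%. The Tgfb2 window was 54.3% G or C, with TATAAA at −31 and CAGAC at −221 and −204 from the start. In the printed Postn window TATAAA began at −26 and CAGAC was not found, while the other Postn window held CAGAC at −191 and no TATAAA at this distance. Of the 7 windows 4 held CAGAC in one orientation or the other, and 49.6% of all windows did. TATAAA at this distance stood in 2 of the 7 and in 1.99% of all windows. These matches describe the sequence and were not tested against the counts.

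Total counts were 19309312 to 20470065 per heart, and these ranges overlapped between genotypes. Every sensitive library counted fewer genes at least once, with 21234 to 22039 against 22139 to 22515 in resistant hearts, and the part of this in the values below was not tested. The 9 genes had 188 to 1633 counts in a heart, which puts the counting error of the lowest value at 7.29%, below the common biological coefficient of variation of 11.1% in the fit. Mitochondrially encoded genes took 23.9% ± 0.476 of the counts in resistant and 25.4% ± 0.492 in sensitive hearts (SD, n = 3, exact two-sided permutation p = 0.1, the smallest that 3 against 3 allows). Gene counts do not read the α1 substitutions, so they do not check the genotypes. Cardiomyocyte markers (Myh6, Tnnt2 and 5 others) summed to 40185 to 50576 CPM in resistant and 45698 to 50158 CPM in sensitive hearts.

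Levels of different genes are compared here as CPM per kilobase of the gene's exons, averaged over the 6 hearts. The co-receptor Tgfbr3 was the most abundant of the 9 at 9.06 CPM per kb, followed by Tgfbr2 at 7.88, Postn at 6.24 and Fn1 at 5.15. Below them stood Tgfbr1 at 4.70, Tgfb1 at 4.38, Tgfb3 at 4.30 and Smad7 at 3.86, and Tgfb2 was lowest at 2.06 CPM per kb. Each gene's range over the hearts overlapped that of the next gene down, except for Smad7 over Tgfb2, whose means differed 1.87-fold. The order was not the same in both genotypes. Tgfb1 stood above Tgfbr1 in all 3 resistant hearts (means 4.89 and 4.43 CPM per kb) and below it in all 3 sensitive hearts (3.87 and 4.96). Fn1 stood above Tgfbr1 in all 3 resistant hearts (mean 5.99) and below it in all 3 sensitive hearts (mean 4.31). Both changes of order depend on the division by length. In CPM, Tgfbr1 stood above Tgfb1 and below Fn1 in all 3 hearts of each genotype. The levels fell between the 39.7 and 76.6 percentiles of all genes tested.

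Tgfb1 encodes the ligand most often tied to fibrosis and lies at chr7:25687002-25705077 on GRCm38 (ENSMUSG00000002603). Its level was 23.5, 27.7 and 22.8 CPM in resistant hearts 368, 369 and 370, and 20.1, 21.0 and 17.4 CPM in sensitive hearts 379, 380 and 381. Every sensitive heart was below every resistant heart, with the lowest value in mouse 381 and the highest in mouse 369. edgeR gave a log2 fold change of −0.34 ± 0.11 (SE, 95% interval −0.57 to −0.10) with an unadjusted p of 0.00806 and an adjusted p of 0.16, and DESeq2 gave an adjusted p of 0.175. Unadjusted p-values under 0.05 were found for 14.5% of all genes, and 20.0% of all genes did not overlap between genotypes, so neither property is rare in these data. Among the 9 genes, 2 had such a p (Tgfb1 and Fn1) and 3 did not overlap (Tgfb1, Fn1 and Tgfbr1). In RNA from whole hearts, fewer cells of a type and less RNA per cell cannot be told apart.

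Tgfb2, the ligand that needs the co-receptor Tgfbr3 for high-affinity binding, lies at chr1:186622792-186705989 (ENSMUSG00000039239). Resistant hearts had 11.4, 13.0 and 9.45 CPM and sensitive hearts 13.9, 13.0 and 10.9 CPM. The genotypes overlapped, with mouse 370 lowest and mouse 379 highest. Its log2 fold change was 0.16 ± 0.15 (SE), with a 95% interval from −0.15 to 0.47 and an edgeR adjusted p of 0.663.

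Tgfb3, the third ligand, lies at chr12:86056745-86079041 (ENSMUSG00000021253) and had 13.6, 15.2 and 13.3 CPM in resistant hearts. In sensitive hearts it had 17.3, 15.0 and 12.8 CPM. Sensitive hearts held both the highest and the lowest value, so the ranges were nested. The difference was 0.10 ± 0.13 on the log2 scale (SE, 95% interval −0.18 to 0.37, edgeR adjusted p = 0.784). None of the 3 ligands passed the test in edgeR or in DESeq2, and 1 of them, Tgfb1, had an unadjusted p under 0.05.

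As shares of the ligand RNA per length, Tgfb1 made up 43.7 to 44.8% in resistant hearts and 34.7 to 38.4% in sensitive hearts. The share averaged 44.5% ± 0.619 and 37.0% ± 2.0 (SD, n = 3). Tgfb3 averaged 37.9% in resistant and 42.3% in sensitive hearts, and Tgfb2 averaged 17.7% and 20.8%. By level per length, Tgfb1 was thus the leading ligand in all 3 resistant hearts and Tgfb3 in all 3 sensitive hearts. This change of order depends on the division by length. In CPM, Tgfb1 stood above Tgfb3 in all 3 resistant hearts and in all 3 sensitive hearts. The sensitive hearts had 20.1, 21.0 and 17.4 CPM of Tgfb1 against 17.3, 15.0 and 12.8 CPM of Tgfb3. The ratio of Tgfb1 to Tgfb3 per length was 1.15 to 1.22 in resistant hearts and 0.781 to 0.939 in sensitive hearts. These shares were computed from the same counts as the fold changes and were given no test of their own.

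**Figure D2:**
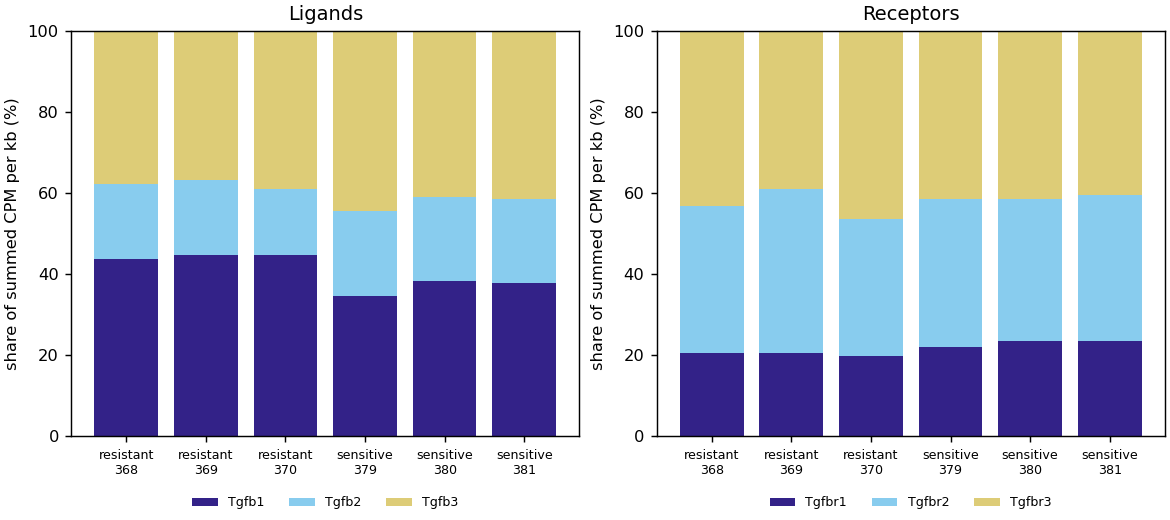
Share of each ligand (left) and each receptor (right) in the summed CPM per kilobase of its class, in percent, with 1 stacked bar for each of the 6 hearts. The Tgfb1 band is 43.7 to 44.8% high in resistant hearts and 34.7 to 38.4% in sensitive hearts, and the Tgfbr1 band is 19.9 to 20.7% and 22.0 to 23.7%.

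Tgfbr1, the type I receptor kinase that phosphorylates Smad2 and Smad3, lies at chr4:47353222-47414931 (ENSMUSG00000007613). It had 29.5, 31.0 and 26.3 CPM in resistant hearts and 32.3, 32.7 and 32.3 CPM in sensitive hearts. All 3 sensitive hearts were above all 3 resistant hearts and lay close together, with a coefficient of variation of 0.624% against 8.19% in resistant hearts. The counting error at its lowest count, 524, was 4.37%, so the 0.624% cannot be read as a smaller biological spread. edgeR gave a log2 fold change of 0.16 ± 0.09 (SE, 95% interval −0.03 to 0.36) and an adjusted p of 0.425.

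Tgfbr2, the type II receptor kinase that binds the ligand first, lies at chr9:116084293-116175360 (ENSMUSG00000032440). Its values were 64.9, 76.8 and 55.7 CPM in resistant and 67.5, 60.9 and 61.4 CPM in sensitive hearts. The resistant hearts spanned the whole range of the sensitive ones, with mouse 369 highest and mouse 370 lowest of the 6. A log2 fold change of −0.06 ± 0.10 was estimated (SE, 95% interval −0.27 to 0.16, edgeR adjusted p = 0.851), and without mouse 369 its sign turned, to 0.073.

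Tgfbr3, or betaglycan, presents the ligand to the signalling receptors and lies at chr5:107106570-107289629 (ENSMUSG00000029287). Resistant hearts had 61.6, 58.8 and 61.3 CPM, and sensitive hearts 61.0, 57.6 and 55.3 CPM. It varied least of the 9 in resistant hearts, with a coefficient of variation of 2.57%, and the genotypes overlapped. The log2 difference of −0.06 ± 0.07 (SE) had a 95% interval of −0.22 to 0.09 and an edgeR adjusted p of 0.739. None of the 3 receptors passed in edgeR or DESeq2, and none had an unadjusted p under 0.05.

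Within the receptors, Tgfbr1 averaged 20.4% of the summed level per length in resistant hearts and 23.1% in sensitive hearts. The ratio of Tgfbr1 to Tgfbr2 per length was 0.505 to 0.593 in resistant hearts and 0.600 to 0.672 in sensitive hearts. These ranges met without overlap, with mouse 370 and mouse 379 almost level at 0.593 and 0.600. Tgfbr3 took 38.9 to 46.4% in resistant and 40.4 to 41.4% in sensitive hearts, and these ranges overlapped.

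Smad7, which blocks the type I receptor and is itself switched on by TGF-β, lies at chr18:75367529-75395935 (ENSMUSG00000025880). Its level was 17.3, 20.9 and 17.6 CPM in resistant hearts and 17.0, 14.1 and 17.8 CPM in sensitive hearts. The genotypes overlapped, since mouse 381 was above mice 368 and 370. In edgeR the log2 fold change was −0.19 ± 0.12 (SE), with a 95% interval of −0.45 to 0.07 and an adjusted p of 0.503.

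Postn encodes periostin, a matrix protein that activated fibroblasts secrete, and lies at chr3:54361109-54391037 (ENSMUSG00000027750). Resistant hearts had 62.1, 65.7 and 48.2 CPM, and sensitive hearts had 41.3, 55.4 and 53.2 CPM. Mouse 370 lay below mice 380 and 381, so the genotypes overlapped, and mouse 379 was lowest. The log2 fold change of −0.23 ± 0.12 (SE, 95% interval −0.49 to 0.03) did not pass in edgeR (adjusted p = 0.397). Its coefficient of variation was 15.7% in resistant and 15.2% in sensitive hearts, against 11.1% and 8.98% for Fn1.

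Fn1 encodes fibronectin, the adhesive glycoprotein on which other matrix proteins assemble, and lies at chr1:71585520-71653200 (ENSMUSG00000026193). It had 69.4, 78.0 and 62.5 CPM in resistant hearts and 46.7, 55.4 and 49.0 CPM in sensitive hearts. The lowest resistant heart, mouse 370, was above the highest sensitive heart, mouse 380. Means were 70.0 ± 7.77 CPM and 50.4 ± 4.52 CPM (SD, n = 3). Fn1 fell by 0.47 ± 0.09 on the log2 scale (SE, 95% interval −0.67 to −0.28, edgeR adjusted p = 0.0222), a larger absolute change than that of 89.1% of all genes tested. DESeq2, which passed 3.65% of its genes, also called Fn1 lower (adjusted p = 0.000736).

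With any single heart left out Fn1 stayed lower, by log2 fold changes of −0.54 to −0.39, but it passed in only 2 of the 6 fits. Its edgeR adjusted p was 0.0156 without mouse 370 and 0.0263 without mouse 380. It was 0.0709 without mouse 368, 0.0834 without mouse 369, 0.0877 without mouse 379 and 0.0675 without mouse 381. Fewer genes passed in all of these smaller fits, 0.523 to 1.03% of those tested.

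**Figure D3:**
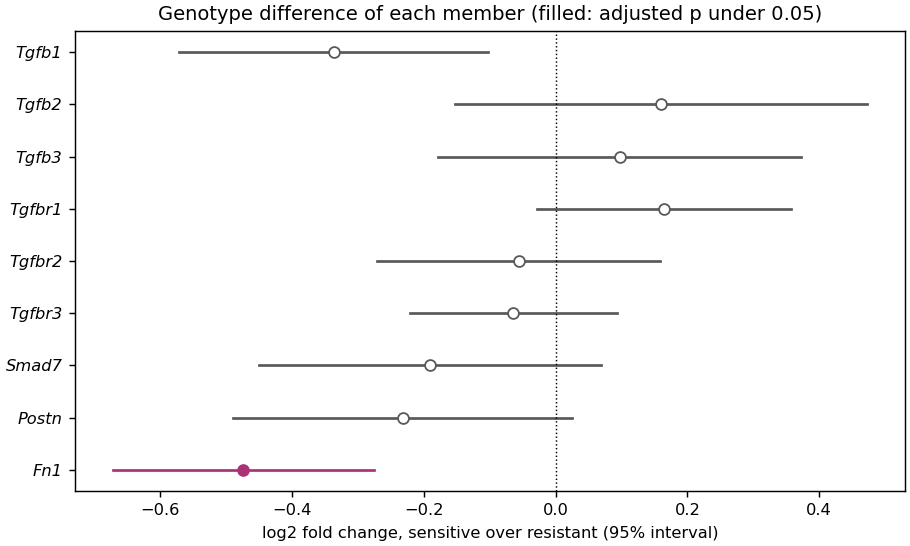
Log2 fold change of each of the 9 genes, sensitive over resistant hearts, with its 95% interval from the edgeR fit (3 hearts per genotype); the filled point passed an adjusted p under 0.05. Only Fn1, at −0.47, is filled, and the intervals of Tgfb1 and Fn1 do not reach 0.

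Most of the 9 genes shared an order of the resistant hearts, which was not tested. Mouse 369 was the highest of the resistant hearts for 8 of the 9, all but Tgfbr3, and mouse 370 was the lowest for 7 of the 9, all but Tgfbr3 and Smad7. Over all genes tested these orders were found for 34.4% and 35.1%. Summed markers were also highest in mouse 369 and lowest in mouse 370 of the resistant hearts for 7 of 11 marker lists: fibroblast, endothelial, macrophage, lymphocyte, atrial myocyte, red blood cell and adipocyte. Cardiomyocyte markers ran the opposite way, at 44155, 40185 and 50576 CPM in mice 368, 369 and 370, and the smooth muscle and pericyte, mesothelium and Schwann cell lists had other orders. The 6 macrophage markers summed to 205, 273 and 174 CPM in mice 368, 369 and 370, and to 150 to 184 CPM in sensitive hearts. The 4 atrial myocyte markers summed to 191, 246 and 157 CPM, and to 139 to 166 CPM in sensitive hearts.

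Single markers of several other cell types had negative log2 fold changes, as Fn1 and Tgfb1 had, and those of other types had positive ones. Positive log2 fold changes were found for 6 of 7 cardiomyocyte, 5 of 5 red blood cell and 3 of 3 tested Schwann cell markers. The 3 lymphocyte and 2 mesothelium markers tested were negative. None of the markers in these 5 lists passed in edgeR. All 6 macrophage markers and all 4 atrial markers had negative log2 fold changes, with 2 of each at an unadjusted p under 0.05. No marker of either list passed in edgeR, while DESeq2 called 2 macrophage markers and 1 atrial marker lower. Of the 7 smooth muscle and pericyte markers 6 were negative and 3 had an unadjusted p under 0.05 (Pdgfrb, Kcnj8 and Cnn1), with sums of 1463 to 1531 CPM in resistant and 1322 to 1492 CPM in sensitive hearts. Of the 6 endothelial markers 4 were negative, and Kdr and Emcn, at −0.50 and −0.31, did not overlap between genotypes. Endothelial sums were 881 to 1035 CPM and 757 to 935 CPM. No marker of the smooth muscle and pericyte or endothelial lists passed in edgeR or DESeq2.

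The 8 fibroblast markers summed to 1750 to 1972 CPM in resistant and 1913 to 2172 CPM in sensitive hearts, and most of this sum was Gsn (1076 and 1210 CPM on average) and Dcn (533 and 554 CPM). By gene, 5 of the 8 fibroblast markers had negative log2 fold changes. Lum was lower in every sensitive heart, at −0.26 ± 0.08 (SE, unadjusted p = 0.00748, adjusted p = 0.155 in edgeR), and it was the only fibroblast marker with an unadjusted p under 0.05. None of the 8 passed in edgeR or DESeq2. Adipocyte markers were the only 1 of 11 marker lists whose sums did not overlap, at 340 to 427 CPM in resistant and 472 to 532 CPM in sensitive hearts (exact two-sided permutation p = 0.1, and 0.55 adjusted over the 11 lists). Nearly all of this sum was Fabp4 (380 and 497 CPM on average), and Adipoq, Plin1 and Cidec had at most 1.39 CPM in any heart. All 4 had positive log2 fold changes and 1 of them, Fabp4, passed in edgeR. No marker in these lists was at 0 in all hearts. The part of RNA from any of these cell types, fibroblasts included, in the values of the 9 genes was not tested.

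**Figure D4:**
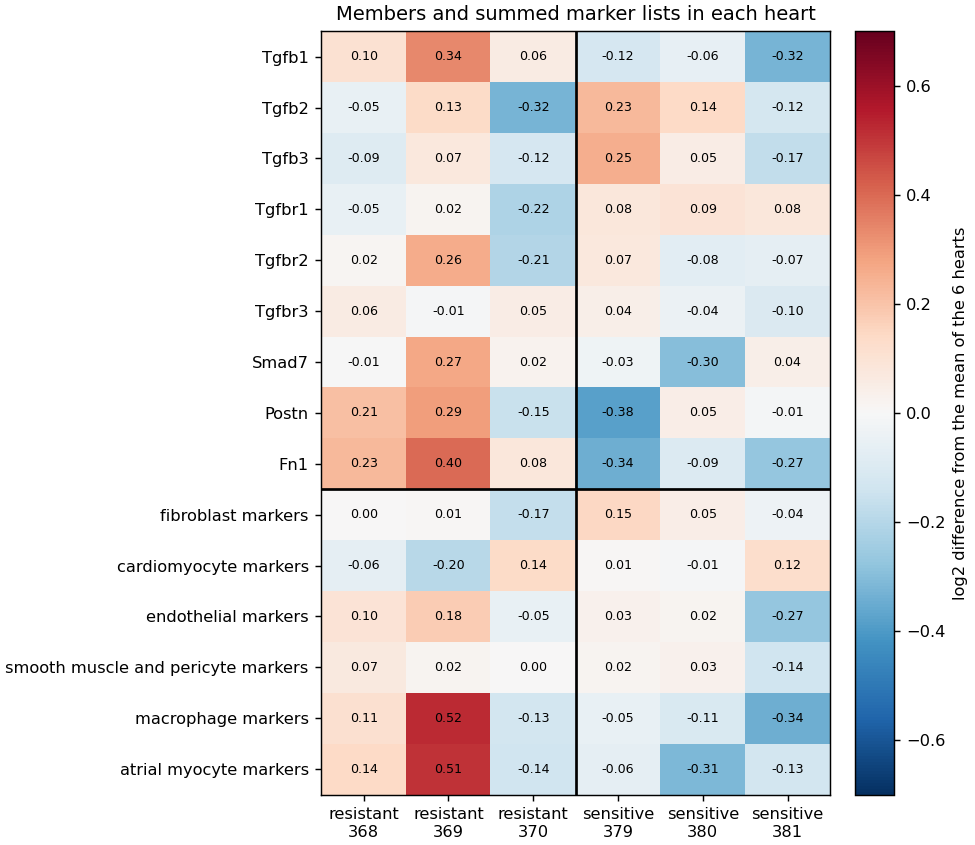
Log2 difference of each heart from the mean of the 6 hearts, for the 9 genes (upper rows) and for the summed CPM of 6 marker lists (lower rows), with resistant hearts left and sensitive hearts right of the line. Mouse 369 is at 0.40 for Fn1, 0.34 for Tgfb1, 0.52 for macrophage and 0.51 for atrial myocyte markers, and at 0.01 for fibroblast markers.

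The other genes of the pathway were taken from lists by role, with 91 genes listed and 85 tested. Of these 85 genes, 2 were higher and 4 were lower in sensitive hearts at an edgeR adjusted p under 0.05, which is 7.06% against 1.44% of all genes. The lists were chosen with earlier results of these data known, so the difference between these shares is descriptive and was not tested. Negative log2 fold changes were found for 52 of the 85, with a median of −0.11. The 6 genes that passed belonged to different steps of the pathway.

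Among 15 genes that hold TGF-β latent or release it, 1 fell and 14 did not pass, with a median log2 fold change of −0.04. Itgb6, the integrin β6 chain that pairs with αv to release latent TGF-β, had 28.6, 28.0 and 31.8 CPM in resistant hearts and 23.3, 18.9 and 14.5 CPM in sensitive hearts. Its groups did not overlap, and it fell by 0.64 ± 0.14 on the log2 scale (SE, edgeR adjusted p = 0.0319). Furin, a protease that cleaves the ligand precursors, had a log2 fold change of 0.24 ± 0.07 (SE) and did not pass (edgeR adjusted p = 0.129). Itgb6 kept its call without mouse 379 (adjusted p = 0.00913) and lost it without any 1 of the other 5 hearts (0.0615 to 0.0923).

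All 6 co-receptors and endothelial receptors had negative log2 fold changes, with a median of −0.27, and 2 of them passed. Nrp1, a co-receptor for vascular endothelial growth factor and semaphorins that also binds TGF-β, had 175, 229 and 173 CPM in resistant hearts and 148, 144 and 125 CPM in sensitive hearts. It fell by 0.47 ± 0.10 on the log2 scale (SE, edgeR adjusted p = 0.0323), with no overlap. Cd109, a membrane-anchored protein that dampens receptor signalling, had 4.30, 4.87 and 4.77 CPM against 1.99, 2.58 and 2.33 CPM. It fell by 1.01 ± 0.23 (SE, edgeR adjusted p = 0.0424), the largest change among the pathway genes that passed. Nrp1 kept its call without mouse 370 (adjusted p = 0.0283) and lost it without any 1 of the other hearts (0.0502 to 0.12), and Cd109 lost it without any 1 of the 6 (0.0744 to 0.131).

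None of the 6 signal-transducing Smads passed in edgeR, 2 had an unadjusted p under 0.05, and DESeq2 called none. Smad3, which carries the TGF-β signal to matrix genes, had 26.9, 26.3 and 23.1 CPM in resistant and 22.7, 18.1 and 20.5 CPM in sensitive hearts, without overlap. Its log2 fold change was −0.32 ± 0.11 (SE, edgeR adjusted p = 0.182). Smad4, the partner shared by all signalling Smads, was at 0.16 ± 0.07 (SE, edgeR adjusted p = 0.338).

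Of the 11 inhibitors tested, 1 rose and 10 did not pass, with a median of 0.02. Ppm1a, a phosphatase that removes the activating phosphates from Smads, had 164, 165 and 167 CPM in resistant hearts and 197, 198 and 203 CPM in sensitive hearts. The hearts of each genotype were close together and far from the other genotype. Ppm1a rose by 0.27 ± 0.06 on the log2 scale (SE, edgeR adjusted p = 0.0493). Bambi, a decoy receptor, was at 0.41 ± 0.13 (SE) and did not pass (edgeR adjusted p = 0.152). The call of Ppm1a was lost without any 1 of the 6 hearts (adjusted p = 0.0735 to 0.203) and with upper-quartile factors (0.0606).

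Of 22 other genes that TGF-β is known to induce, 1 rose, 1 fell and 20 did not pass. Negative log2 fold changes were found for 17 of the 22, and their median was −0.19. Col5a1, a chain of type V collagen, had 65.4, 66.5 and 56.8 CPM in resistant hearts and 48.3, 48.2 and 41.8 CPM in sensitive hearts. It fell by 0.45 ± 0.09 on the log2 scale (SE, edgeR adjusted p = 0.0218), close to the size seen for Fn1. Col5a1 lost its call without mouse 368 (adjusted p = 0.0924), 369 (0.0781) or 381 (0.0748) and kept it without mouse 370, 379 or 380 (0.0166 to 0.0477).

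None of 25 BMP, activin and GDF signalling genes passed in edgeR, with a median of 0.01 and 4 at an unadjusted p under 0.05. DESeq2 called 1 of them, Fstl1, lower. Fstl1, a secreted follistatin-like protein, had 109, 130 and 105 CPM in resistant and 88.7, 102 and 86.5 CPM in sensitive hearts, and its log2 fold change was −0.31 ± 0.09 (SE, edgeR adjusted p = 0.117). Bmp6, a BMP ligand, was at 0.36 ± 0.14 (SE, edgeR adjusted p = 0.263). The 6 listed genes that were not tested, among them Tgif2, Mstn, Bmpr1b, Grem1 and Nog, had at most 19 counts in a heart.

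**Figure D5:**
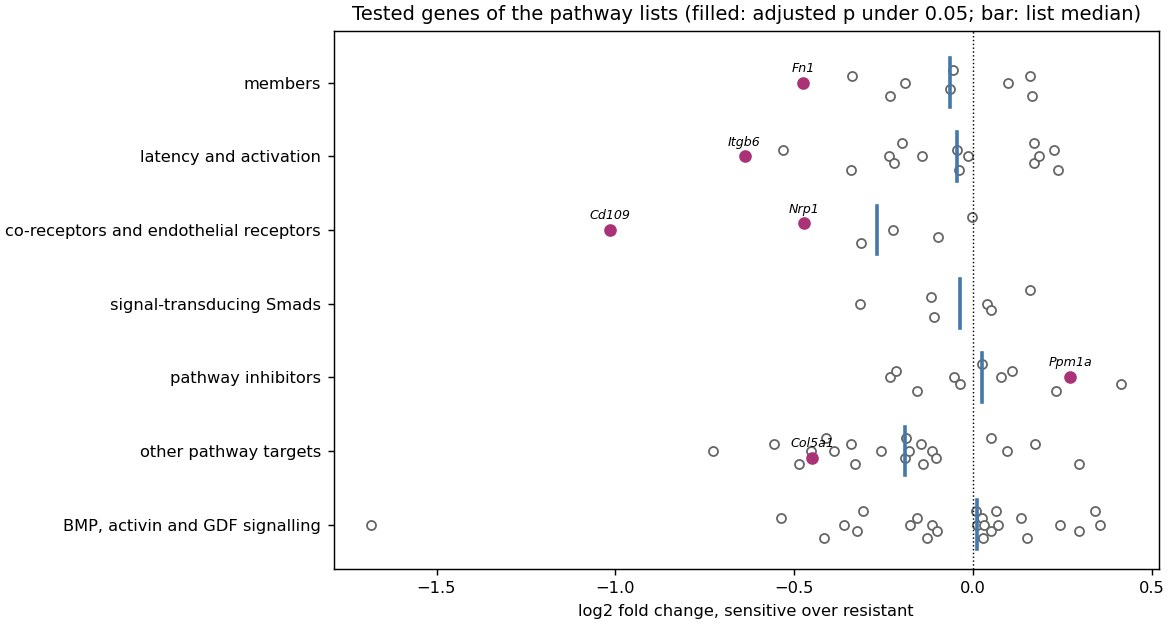
Log2 fold change, sensitive over resistant hearts, of the 9 genes and of 84 of the 85 tested genes of 6 further pathway lists; filled points passed an edgeR adjusted p under 0.05 and the bars are medians over all tested genes of a list. Fn1, Itgb6, Cd109, Nrp1 and Col5a1 lie below 0, Ppm1a above it, and no co-receptor lies above 0.

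The genes most like each of the 9 were sought by Pearson's r of log2 CPM over the 6 hearts, among the 9085 tested genes whose log2 CPM averaged 3 or more. Because the 6 hearts include both genotypes, such values also carry the genotype difference. They describe the hearts and were given no p. Tgfb1 was most like Disp1, Col3a1 and Col1a1, all at 0.99, and the collagen genes among them belong to the target list. Col3a1 and Col1a1 had log2 fold changes of −0.49 and −0.41 and did not pass in edgeR (adjusted p = 0.0542 and 0.0743). Tgfb2 was most like Pdgfra, which encodes a receptor that marks fibroblasts, at 0.99.

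Fn1 was most like Prex1, Pofut1 and Kifc3 (0.97 to 0.99), and Postn was most like Zmpste24, Minpp1 and Fem1b (0.97 to 0.98). The receptors were each most like other genes: Tgfbr1 like Rxra, Rgs2 and Npepl1, Tgfbr2 like Grk6 and Nbl1, and Tgfbr3 like Tpgs2, Nt5c1a and Snx8. Smad7 was most like Naalad2, Smim7 and Fez2, and Tgfb3 like Usp21, Glmp and Nxt2. Among the 9 themselves, the values of Tgfb1 and Fn1 (0.92) and of Tgfb2 and Tgfb3 (0.86) were most alike.

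All 9 genes have the same coordinates in the GENCODE M21 annotation of GRCm38 as in the deposited table. Other annotated genes overlap exons of Tgfb2, Tgfb3, Tgfbr3 and Fn1, and these had at most 7 counts in a heart. Whether counting used strand was not given in the sources used here, so reads of a gene and of its antisense partner cannot be told apart.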

How the data were processed

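Total RNA from 6 hearts was sequenced by a company on an Illumina NovaSeq system. The authors deposited raw read counts per gene, which were used as deposited. The submitters' processing notes name fastp, STAR, featureCounts and mm10, and give no version. A further deposited table holds the authors' own DESeq2 comparison (mean signal, log2 fold change with its standard error, a test score, p-value and adjusted p-value) and was not used.

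Groups followed the genotype labels. Counts were analysed in R 4.3.3 with edgeR 4.0.16. Library sizes were scaled by TMM, and genes were kept by filterByExpr with a minimum count of 10 and a total of at least 15. Genotypes were compared by its quasi-likelihood F test, and the p-values of all 14866 genes tested were adjusted by the Benjamini-Hochberg method and called under 0.05. Standard errors were the size of the log2 fold change over the square root of F. CPM used TMM library sizes, and log2 CPM a prior count of 2. P-values set the genotype difference against the spread between these hearts, with the spread of each gene moderated by that of all genes. The fit was repeated with DESeq2 1.42.0 (independent filtering at 0.1), with upper-quartile or RLE factors, unfiltered, with 10 or more counts required in each heart, with a robust prior, after removal of globin and mitochondrially encoded genes, with a call at an adjusted p under 0.1, and with every heart dropped once.

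Named were the 9 genes, from each pathway list the genes that passed or else the 2 with the smallest p, and for each of the 9 the 3 genes most like it. Ltbp4 and Acta2, which DESeq2 alone called, were named after their values were seen. Some single genes that these rules chose are counted but not reported here. The genes and lists were chosen with earlier results of these data known. The scripts were tested on simulated data. Depth was 19309312 to 20470065 counts, and the counting error covers reads only.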

Additional observations from a re-analysis of the deposited data

How the results depend on the processing

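Fn1 kept its direction and its call under each of the 7 other settings of the fit (adjusted p 2.52e-05 to 0.0227), and lost the call without mouse 368, 369, 379 or 381. The number of the 9 genes called ranged from 0 to 1 with a heart left out, against 1 with all 6. In the 4 edgeR fits with 0 called, 1 or 2 of them had an unadjusted p under 0.05. Over all genes, 403 were called by DESeq2, 618 without a filter, 402 at an adjusted p under 0.1 and 80 to 158 with a heart left out, against 214. Of the pathway list genes, 10 were called by DESeq2 (Ltbp4, Col1a1, Acta2 and Fstl1 beside the 6), 14 without a filter and 0 to 3 with a heart left out, against 6. The 2 edgeR fits with 0 had 21 at an unadjusted p under 0.05. Fewer hearts leave fewer degrees of freedom. Among 117 recomputed log2 fold changes of the 9 genes, 111 kept sign and side of the threshold, 4 lost the call (Fn1, above) and 2 changed sign. Those were Tgfbr2, at 0.073 without resistant replicate 2 (−0.16 to 0.073 over the 6 fits), and Tgfb3, at −0.014 without sensitive replicate 1 (−0.014 to 0.20). The cause was not tested. For the 12 pathway genes chosen by rule, 123 of 156 values kept their side, 30 lost the call and 3 gained it, and none changed sign. No paired analysis was possible because the labels give the hearts of the genotypes no shared numbers. With 3 hearts per genotype, the intervals printed for the 8 genes that did not pass bound the size of a difference, and depth adds a counting error of at most 7.29% to a single value.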
